A study of Rattus norvegicus with 65 samples.

Results

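The genes described here are the zinc finger protein genes whose rat symbol is Zfp, a number and at most 1 letter. The symbols were found by gene identifier, and 234 of the 14554 genes in the count table are members. RNA was sequenced from cultured primary cardiomyocytes of newborn rats treated with 10 mM 5-fluorouracil (5FU), 2.5 mM acetaminophen (Ace) or 1.25 μM doxorubicin (Dox) for 6 or 24 hours. The controls were DMSO1 (1% DMSO, the solvent share of the 5FU wells) and DMSO2 (0.25%, that of the Ace and Dox wells), at the same 2 times. There were 6 libraries in 5FU, DMSO1 and Ace at 6 hours and in 5FU and DMSO1 at 24 hours, and 7 in each other group, 65 in all. Hearts of more than 1 litter gave the cells, which were pooled, plated and kept without serum before treatment, so the libraries of a group are wells of 1 pooled preparation and p-values measure the spread between wells. The strain of the rats was not given in the sources used here.

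Most Zfp genes encode proteins with rows of C2H2 zinc fingers, small folds in which 2 cysteines and 2 histidines hold a zinc ion and which usually read DNA. Many also carry a KRAB domain, which recruits the corepressor Trim28 and, through it, histone methylation and silencing, and these genes tend to lie in clusters formed by duplication. Transcripts of C2H2 zinc finger genes are known as a class to be short-lived, so that their level can follow a change in transcription or decay within hours; no transcript lifetime was measured here. A smaller number of members bind RNA or work in ribosome biogenesis or mitosis. 5FU is a uracil analogue that interferes with RNA and thymidylate synthesis, Dox intercalates into DNA and poisons topoisomerase II, and Ace is an analgesic with known liver toxicity.

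Library totals ran from 14332827 to 25738297 counts, and 214 of the 234 members had at least 10 counts in every library. The median member had a mean count of 253.4 over the libraries, against 421.2 for all genes. Levels below are in CPM, counts scaled to the depth of the library, after TMM scaling, a correction for differences in RNA composition. They compare 1 gene across groups, not genes with each other. A gene was called at a false discovery rate (FDR) below 0.01 in edgeR's quasi-likelihood test, adjusted over all 14554 genes. Of the markers of cardiomyocytes, fibroblasts, endothelial cells, macrophages, smooth muscle and dividing cells that were in the table, none was at 0 throughout a group. At 24 hours the summed cardiomyocyte markers stood at a median of 8029 CPM in Dox (7654 to 9274) and 28090 in DMSO2 (23881 to 31747). In these bulk samples fewer cells of a type and less RNA per cell cannot be told apart. Library 7 of Dox at 24 hours stood apart from the other 6 for several members, and counts with and without it are given below.

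More Zfp genes were higher than lower at 6 hours in 5FU and Ace, and more were lower than higher in Dox at both times. At 6 hours 5FU called 101 members higher and 46 lower, where 23.4% of all genes were called higher and 24.5% lower (47.9% in either direction); this is 43.2% and 19.7% of the members. The median log2 fold change of the members was 0.22, and that of all genes rounded to 0. Ace at 6 hours called 74 higher and 18 lower (31.6% and 7.69% of members), against 16.5% and 15.2% of all genes (31.7% in either direction), with a median of 0.18. Dox at 6 hours called 43 higher and 135 lower (18.4% and 57.7%), against 31.5% and 32.7% of all genes (64.2% in either direction), with a median of -0.41. Scaling by library size alone moved the median of all genes in this last comparison to -0.15, and 29 members were then higher and 151 lower.

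At 24 hours the medians of 5FU and Ace lay near 0, and that of Dox was as low as at 6 hours. With 5FU 49 members were higher and 51 lower (20.9% and 21.8%), against 28% and 27.8% of all genes (55.8% in either direction). The median was 0.02. With Ace 27 members were higher and 32 lower (11.5% and 13.7%), against 18.2% and 19.1% of all genes (37.2% in either direction). The median was -0.02. With library size alone 35 members were higher and 23 lower. With Dox 62 members were higher and 128 lower (26.5% and 54.7%), against 40.4% and 41% of all genes (81.4% in either direction). The median was -0.41. Without library 7 of Dox 63 members were higher and 127 lower. Among the called members 22 rose and 70 fell by at least 1 on the log2 scale at 24 hours of Dox, and 10 rose and 48 fell by as much at 6 hours.

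**Figure D1:**
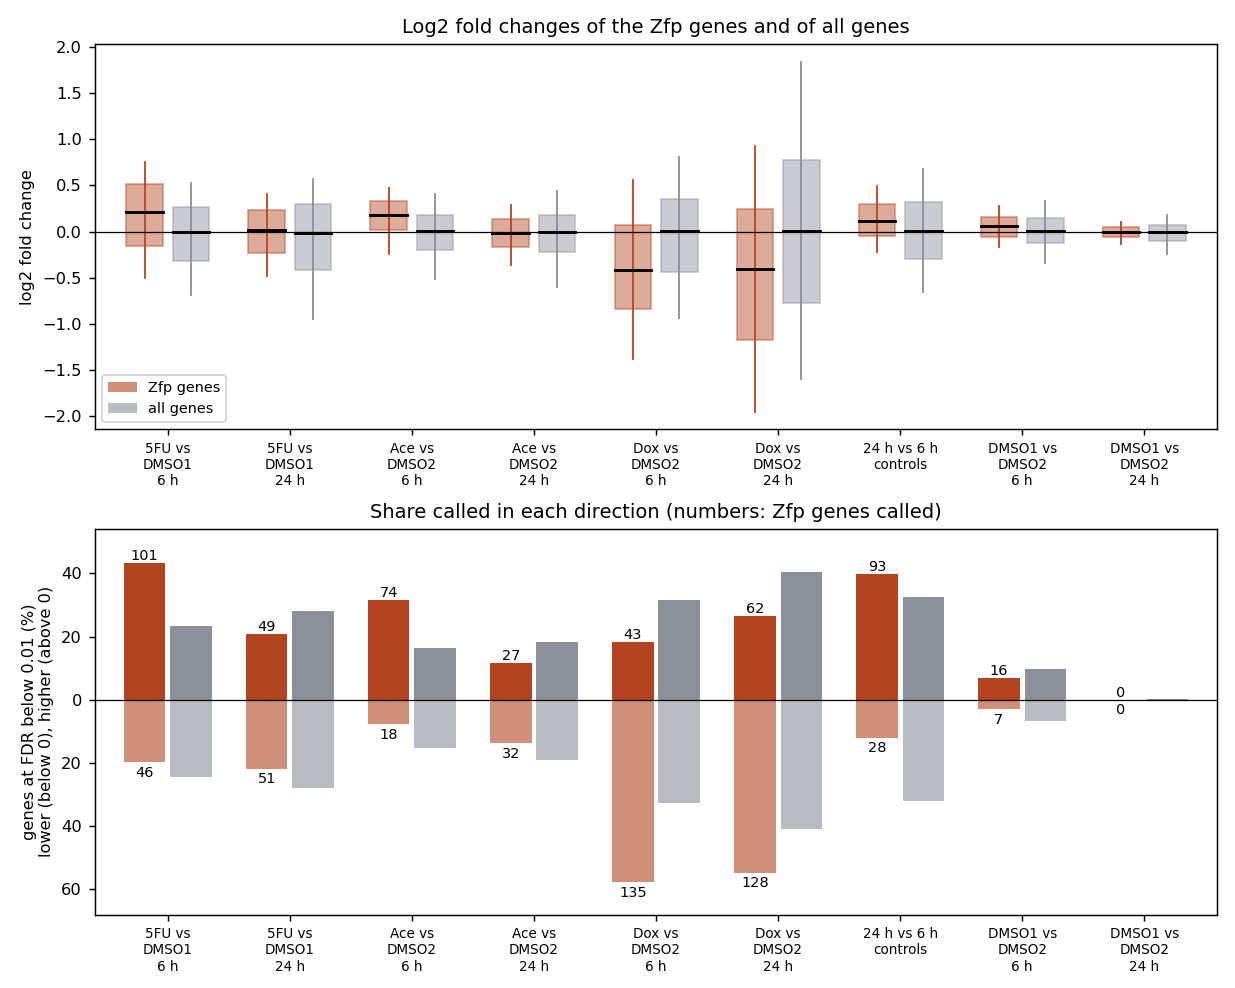
Upper panel: log2 fold changes of the 234 Zfp genes (red) and all 14554 genes (grey) in 9 comparisons, with the median as a black line, a box from the lower to the upper quartile and the 10th to 90th percentile as a line. Lower panel: percent of genes called at an FDR below 0.01, higher above 0 and lower below 0, with the number of Zfp genes; the Zfp median lay at 0.22 in 5FU and 0.18 in Ace at 6 hours and at -0.41 in Dox at both times.

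The groups in which each member had its extremes are given next. The highest group mean lay in 5FU at 6 hours for 66 members (28.2%), against 9.24% of all genes, and in Dox at 24 hours for 55 (23.5%), against 31.1% of all genes. The lowest lay in Dox at 6 hours for 69 members (29.5%), against 13.5% of all genes, and in Dox at 24 hours for 85 (36.3%), against 28.3%. The summed level of the 234 members had a median of 3862 CPM in Dox at 6 hours (3769 to 4169) and of 4697 in DMSO2 (4580 to 4962). The 2 groups did not overlap. In 5FU at 6 hours it had a median of 5433 (5139 to 5716) and in DMSO1 of 4945 (4785 to 5071), again without overlap. The difference between the highest and lowest group mean was 1.22 on the log2 scale for the median member and 1.23 for the median gene. It was widest for Zfp955a, at 4.0, and narrowest for Zfp330, at 0.29.

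**Figure D2:**
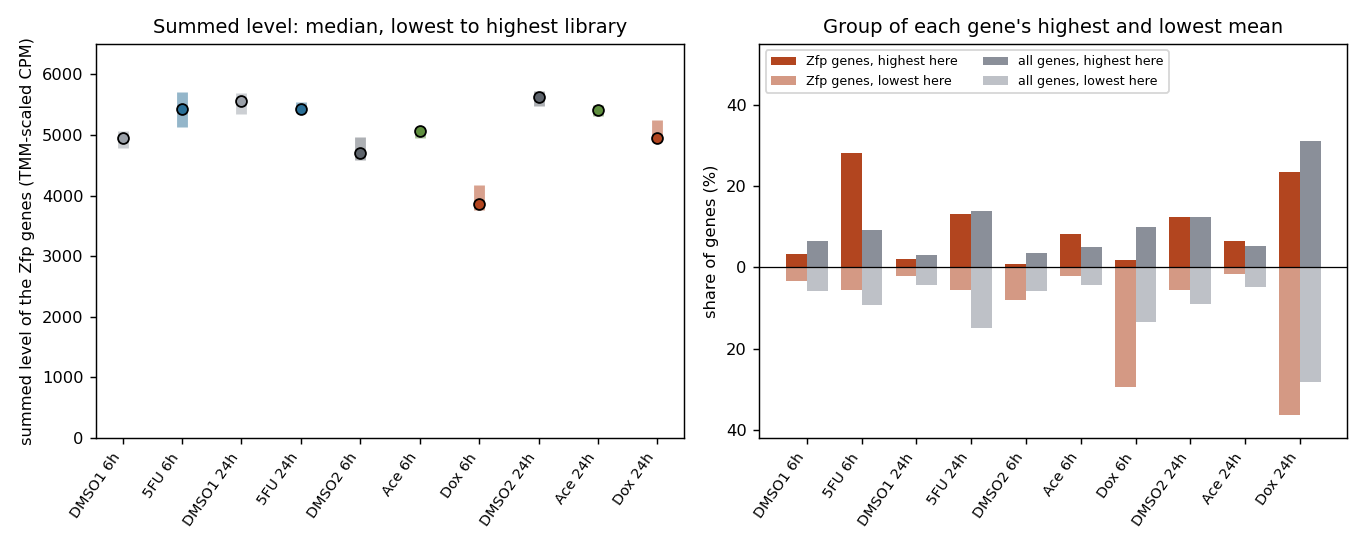
Left panel: summed TMM-scaled CPM of the 234 Zfp genes by group, with the median as a point and a bar from the lowest to the highest library; Dox at 6 hours, at a median of 3862, lies lowest. Right panel: percent of Zfp genes (red) and all genes (grey) whose highest (above 0) or lowest (below 0) group mean falls in each group; 28.2% of Zfp genes were highest in 5FU at 6 hours and 29.5% lowest in Dox at 6 hours.

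The members that lost most under Dox included Zfp955a and Zfp13. Zfp955a lay at 31.9, 35.8 and 41 CPM (lowest, median and highest library) in DMSO2 at 6 hours and at 5.96, 6.53 and 9.99 in Dox. At 24 hours it lay at 27.6, 30.3 and 33.4 in DMSO2 and at 1.74, 2.04 and 3.08 in Dox. No Dox library overlapped a control library at either time, while 5FU and Ace libraries stood at 28.9 or above. The log2 fold changes were -2.38 ± 0.09 (SE, edgeR FDR 1.2e-32) at 6 hours and -3.80 ± 0.11 (FDR 1.1e-40) at 24 hours, and the second was lower than the first by 1.42 ± 0.15 (FDR 4.2e-13). Zfp13 lay at 7.06, 8.09 and 8.84 CPM in DMSO2 at 24 hours and at 0.646, 0.963 and 1.67 in Dox. Its log2 fold change was -1.54 ± 0.11 (FDR 4.9e-20) at 6 hours and -2.95 ± 0.13 (FDR 2.5e-31) at 24 hours. With Ace at 24 hours Zfp13 was higher by 0.51 ± 0.10 (FDR 8.1e-06). Reads that near-identical copies share are divided by kallisto, so values of members of recent duplications, such as Zfp955a and Zfp964, are less certain than the others.

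Zfp260, a regulator of cardiac gene expression described in adrenergic signalling of the heart, stood at 60, 67.4 and 70.5 CPM in DMSO2 at 6 hours and at 26, 29.6 and 31.4 in Dox. The groups did not overlap at 6 hours, nor at 24 hours, when Dox lay at 23.9, 28.5 and 35.9 and DMSO2 at 72.1, 79.1 and 90.1. It fell by 1.19 ± 0.06 (FDR 2.9e-26) and 1.45 ± 0.06 (FDR 1.7e-31). Zfp106, an RNA-binding protein needed in muscle and motor neurons and the member with the highest mean count, fell by 0.49 ± 0.06 (FDR 1.1e-11) at 6 hours and by 1.40 ± 0.06 (FDR 1.4e-32) at 24 hours of Dox. Its controls rose with time, from a median of 206 CPM in DMSO2 at 6 hours to 327 at 24 hours, while Dox stood at 147 and 122. Zfp579 lay at 13.3, 14.3 and 17.7 CPM in DMSO2 at 24 hours and at 2.22, 3.23 and 3.38 in Dox, without overlap. Its fold change was -0.47 ± 0.09 (FDR 1.4e-05) at 6 hours and -2.32 ± 0.10 (FDR 1.1e-30) at 24 hours. All 5 cardiomyocyte markers were also lower in Dox at 24 hours, with a median log2 fold change of -2.66, as were 6 of 6 fibroblast (-2.30), 4 of 4 endothelial (-3.40) and 4 of 4 macrophage markers (-1.42), while 2 of 3 smooth muscle markers were higher (median of the 3 at 2.69). At 6 hours of Dox 3 of 5 cardiomyocyte, 4 of 6 fibroblast and 4 of 4 endothelial markers were lower, 2 of 5 cardiomyocyte and 3 of 3 smooth muscle markers were higher, and of the 4 macrophage markers 2 were higher and 1 lower. The part of these markers in the values was not tested.

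Zfp367, a transcription factor first described in erythroid cells, rose in all 6 drug comparisons and most in Dox. It lay at 12.9, 13.1 and 14.5 CPM in DMSO2 at 6 hours and at 35.2, 47.3 and 49.4 in Dox, and at 8.9, 10.3 and 11.6 and at 42.5, 61.6 and 68.3 at 24 hours. Drug libraries lay above control libraries in each of the 6 comparisons. The log2 fold changes were 1.73 ± 0.09 and 2.54 ± 0.10 in Dox, 0.70 ± 0.10 and 1.39 ± 0.10 in Ace, and 1.07 ± 0.10 and 0.38 ± 0.11 in 5FU at 6 and 24 hours (FDR from 1.1e-33 to 0.0023). Zfp367 also differed between the solvents at 6 hours, by 0.69 ± 0.10 in DMSO1 over DMSO2 (FDR 2.5e-07). At 24 hours that difference was 0.08 ± 0.11 (FDR 0.79). Its controls fell by 0.70 ± 0.07 from 6 to 24 hours (FDR 8.4e-13). The markers of dividing cells Mki67, Top2a and Cdk1 moved with it in Ace at 24 hours and in DMSO1 against DMSO2 at 6 hours, where 3 of 3 were higher, and in the controls over time, where 3 of 3 were lower. They moved against it in Dox at both times and in 5FU at 6 hours, where 3 of 3 were lower. In Ace at 6 hours 2 of 3 were lower. In 5FU at 24 hours 1 of 3 was called lower and 0 higher, with a median log2 fold change of 0.05. The part of these markers was not tested.

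Zfp365, known in human cells for a role in genome stability, rose most at 24 hours of Dox among the members with a mean count of at least 100. It lay at 5.74, 6.95 and 7.53 CPM in DMSO2 and at 42.5, 47.5 and 53.8 in Dox, far apart. The fold change was 2.84 ± 0.10 (FDR 1e-34), against 0.68 ± 0.10 (FDR 1.3e-08) at 6 hours, and in 5FU at 24 hours it was 0.75 ± 0.12 (FDR 1.1e-07). The control level of Zfp365 fell by 1.29 ± 0.08 from 6 to 24 hours (FDR 7.3e-23), the largest fall among members with a mean count of at least 100. Zfp385a, a p53 target that directs p53 between its targets, rose by 0.53 ± 0.10 (FDR 6.4e-06) and 1.01 ± 0.10 (FDR 6e-14) in Dox at 6 and 24 hours and did not pass the test in the 4 comparisons of 5FU and Ace. Zfp281, which binds GC-rich promoters and is known from stem cells, stood at 26.5, 27.3 and 30.2 CPM in DMSO2 at 24 hours and at 76.4, 79.6 and 96.9 in Dox. It rose by 1.57 ± 0.06 (FDR 3.8e-32), and by 0.43 ± 0.07 (FDR 4.5e-08) at 6 hours. Zfp964 rose by 1.13 ± 0.09 (FDR 9.8e-17) and 2.17 ± 0.09 (FDR 8.5e-32).

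Zfp143 and Zfp423 changed direction between the Dox times. Zfp143, an activator of promoters of small nuclear RNA and many protein-coding genes, lay at 13, 14.7 and 17 CPM in DMSO2 at 6 hours and at 6.07, 6.88 and 7.96 in Dox. At 24 hours it lay at 14.9, 16.8 and 18.1 in DMSO2 and at 22.9, 26 and 27.2 in Dox. Dox was thus wholly below its controls at 6 hours and wholly above them at 24 hours, with log2 fold changes of -1.11 ± 0.09 (FDR 7.9e-18) and 0.60 ± 0.08 (FDR 4.6e-10) and a difference of 1.71 ± 0.12 (FDR 2.7e-20). Zfp423, a cofactor of BMP signalling known from the fat cell lineage, lay at 9.41, 10.7 and 12.2 CPM in DMSO2 at 6 hours and at 2.14, 3.96 and 5.34 in Dox, and at 9.63, 10.2 and 12.8 and at 14, 17.7 and 20.7 at 24 hours. It fell by 1.37 ± 0.14 (FDR 2.7e-13) at 6 hours and rose by 0.70 ± 0.13 (FDR 1.1e-06) at 24 hours, with a difference of 2.07 ± 0.19 (FDR 3.6e-15). Of all members 57.7% were lower in Dox at 6 hours and 54.7% at 24 hours, against 32.7% and 41% of all genes. Higher were 18.4% and 26.5% of all members, against 31.5% and 40.4% of all genes. The overlaps below are to be read beside these shares. Among all members 110 were lower at both Dox times and 29 higher at both. Another 15 were lower at 6 and higher at 24 hours, and 4 the reverse. The 110 are 81.5% of those lower at 6 hours and 85.9% of those lower at 24 hours, against 72.6% and 58% for all genes. The 29 are 67.4% of those higher at 6 hours and 46.8% of those higher at 24 hours, against 72.7% and 56.7%. The 15 are 11.1% of those lower at 6 hours and 24.2% of those higher at 24 hours, against 12.4% and 10.1%, and the 4 are 9.3% of those higher at 6 hours and 3.12% of those lower at 24 hours, against 13.4% and 10.3%. The difference between the Dox effects at 24 and 6 hours was called higher for 65 members and lower for 75, 27.8% and 32.1%. Of all genes 34% were higher and 30.8% lower (64.8% in either direction). With library size alone the counts of members were 88 and 44, and the median of all genes moved to 0.27. Without library 7 of Dox they were 67 and 70.

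**Figure D3:**
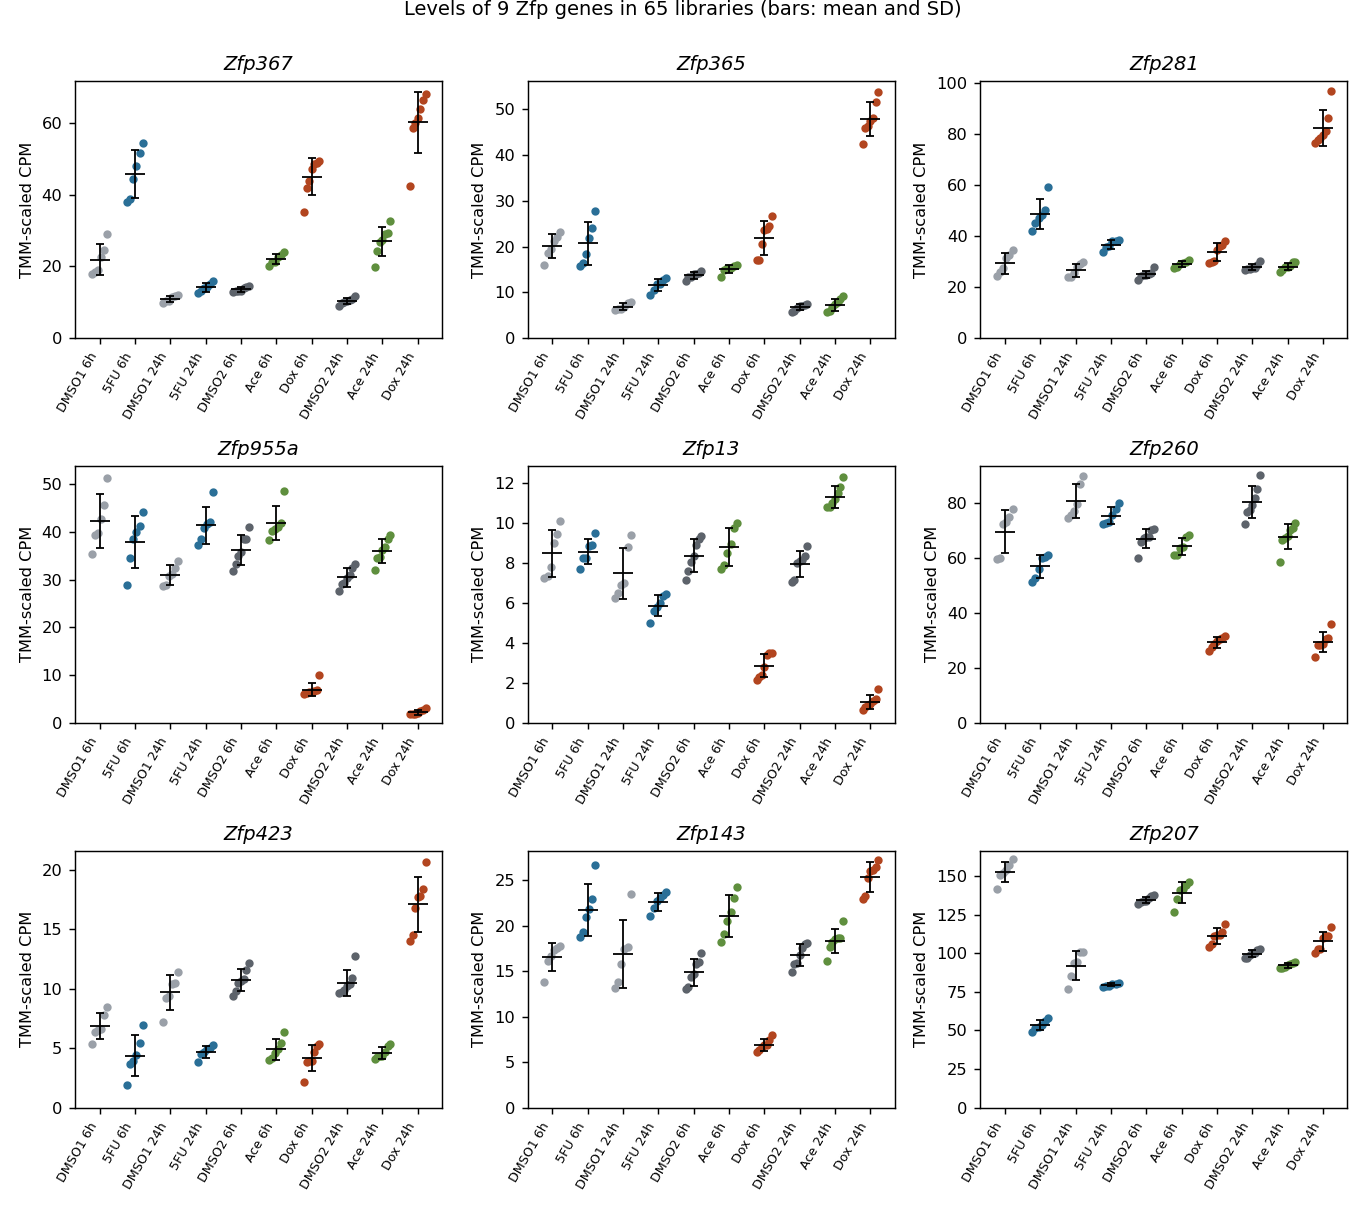
TMM-scaled CPM of 9 Zfp genes in each of the 65 libraries by drug and time, each group beside its solvent control; points are libraries in order of value and bars the mean and SD. Zfp955a, Zfp13 and Zfp260 are lowest in Dox, Zfp367, Zfp365 and Zfp281 highest in Dox at 24 hours, Zfp423 and Zfp143 low in Dox at 6 and high at 24 hours, and Zfp207 low in 5FU at 6 hours.

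With 5FU at 6 hours Zfp280b and Zfp398 rose most among the members with a mean count of at least 100. Zfp280b lay at 11.1, 12.1 and 15 CPM in DMSO1 and at 23.4, 28.3 and 38.4 in 5FU, a rise of 1.22 ± 0.10 (FDR 2.6e-17). Zfp398 lay at 4.67, 6.1 and 7.62 and at 11.2, 14.1 and 17, a rise of 1.20 ± 0.11 (FDR 1.1e-14). Neither pair of groups overlapped, and at 24 hours the changes were 0.09 ± 0.10 (FDR 0.45) and 0.28 ± 0.11 (FDR 0.027). Dox at 6 hours moved the pair apart, with Zfp280b lower by 1.0 ± 0.10 (FDR 1.2e-13) and Zfp398 higher by 0.72 ± 0.10 (FDR 1.5e-08). Zfp207, a spindle protein that binds Bub3 in mitosis, fell most, from 142, 153 and 161 CPM in DMSO1 to 49.1, 53 and 57.8 in 5FU. Its fall of 1.52 ± 0.04 (FDR 6e-38) shrank to 0.21 ± 0.04 (FDR 2e-05) at 24 hours. Mki67, Top2a and Cdk1 were also lower at 6 hours of 5FU, with log2 fold changes between -0.93 and -0.98, and their part in these values was not tested. Zfp608 lay at 25.2, 27.4 and 33.5 CPM in DMSO1 and at 8.87, 11.5 and 16.1 in 5FU and fell by 1.26 ± 0.10 (FDR 4.3e-17).

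The 6-hour comparisons of 5FU and Dox share no library. Of the 101 members higher in 5FU, 51 were lower in Dox (50.5%), where 57.7% of all members were lower, and 24 were higher in Dox (23.8%), where 18.4% of all members were higher. Among all genes higher in 5FU 22% were lower and 50.6% higher in Dox. The 51 are 37.8% of the 135 members lower in Dox, where 43.2% of all members were higher in 5FU. Among all genes lower in Dox 15.8% were higher in 5FU, where 23.4% of all genes were. The members lower in 5FU were lower in Dox too in 37 of 46 cases, 80.4%, against 57.7% of all members and 53.7% of all genes lower in 5FU. Across the 234 members the log2 fold changes of 5FU and Dox at 6 hours had a Pearson correlation of 0.149, against 0.316 across all genes, and those of Dox at 6 and 24 hours of 0.743, against 0.696. These correlations are across genes, which share libraries and are not independent replicates.

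**Figure D4:**
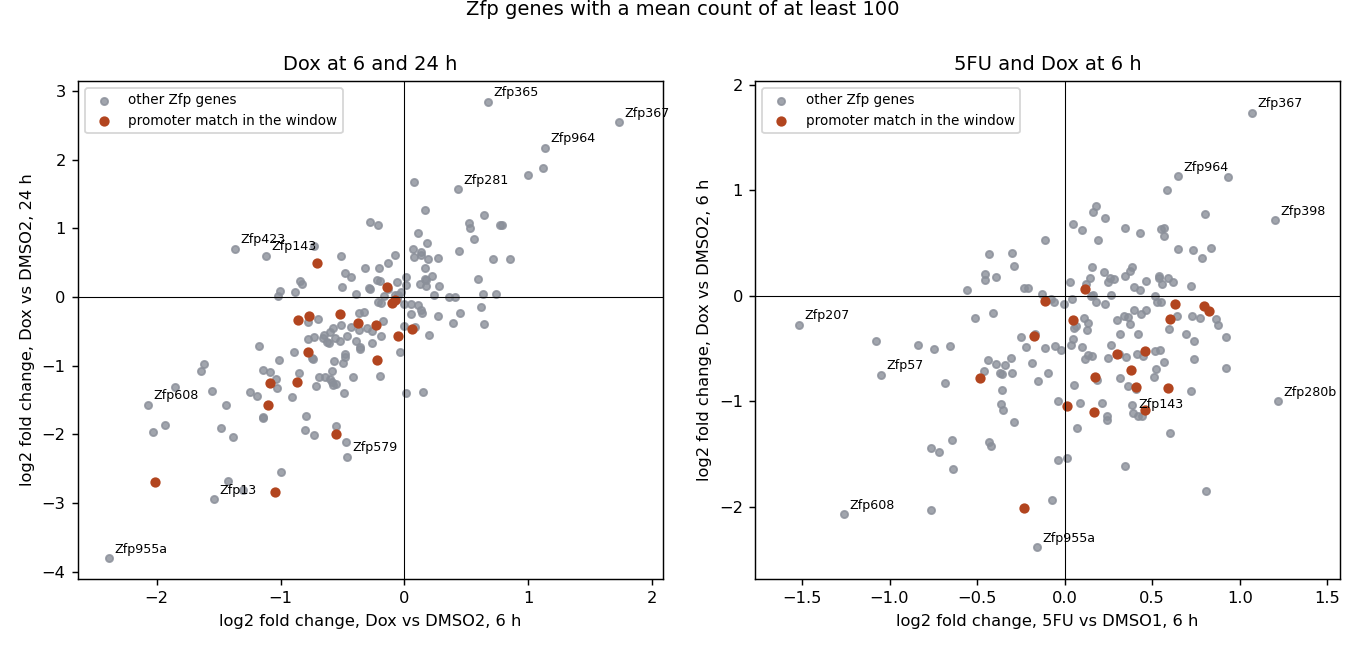
Log2 fold changes of the 187 Zfp genes with a mean count of at least 100: Dox at 6 against 24 hours (left) and 5FU at 6 hours against Dox at 6 hours (right). Red points are the 19 whose promoter window holds the Zfp143 and Thap11 motif, and grey points the others, including those with no window at hand; the points of the left panel run from lower left to upper right, and in the right panel more lie below 0 than above it in Dox, on both sides of 0 in 5FU.

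At 24 hours of 5FU Zfp523 fell most among the members with a mean count of at least 100. It is a close relative of Zfp143, and it lay at 32.2, 39.2 and 44.6 CPM in DMSO1 and at 14.9, 15.1 and 16.5 in 5FU. The groups did not overlap, and the fold change was -1.33 ± 0.06 (FDR 3.6e-28) after -0.51 ± 0.06 (FDR 1.1e-11) at 6 hours. Zfp523 was higher in Ace at both times, by 0.21 ± 0.05 each (FDR 0.00095 and 0.00035). Zfp503, a repressor known from limb and brain development, fell by 1.10 ± 0.09 in 5FU (FDR 7.4e-16) and by 0.65 ± 0.08 in Ace (FDR 1.4e-09) at 24 hours, and rose by 0.85 ± 0.09 (FDR 2.4e-13) and 0.55 ± 0.08 (FDR 1.1e-08) in Dox at 6 and 24 hours. Its controls rose by 1.21 ± 0.06 over the same interval (FDR 1.2e-25), the largest rise among members with a mean count of at least 100. Of these members Zfp457 and Zfp276 rose most in 5FU at 24 hours, by 0.95 ± 0.13 (FDR 2.1e-09) and 0.87 ± 0.07 (FDR 1.4e-16). At 24 hours of 5FU 6 of 6 fibroblast markers were lower, with a median log2 fold change of -1.38. Also lower were 3 of 4 endothelial, 3 of 5 cardiomyocyte and 1 of 3 dividing-cell markers. Of the 3 smooth muscle markers 2 were higher and 1 lower, and of the 4 macrophage markers 0 were called. The part of these markers in the values above was not tested. The difference between the 5FU effects at 24 and 6 hours was called higher for 18 members and lower for 75, 7.69% and 32.1%. Of all genes 20.3% were higher and 19.2% lower (39.5% in either direction). With library size alone the counts of members were 25 and 54.

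With Ace at 6 hours, among the members with a mean count of at least 100, Zfp964 and Zfp707 rose most, by 0.79 ± 0.10 (FDR 1.1e-09) and 0.71 ± 0.07 (FDR 7.3e-13), and Zfp467 and Zfp423 fell most. Zfp467, which favours fat over bone cells, lay at 27, 28.2 and 32.3 CPM in DMSO2 and at 9.9, 11.5 and 13 in Ace. The groups were well separated, and the fall was 1.34 ± 0.08 (FDR 1.3e-21), against 0.73 ± 0.07 (FDR 4.1e-13) at 24 hours. Zfp423 fell in Ace by 1.13 ± 0.14 (FDR 2e-09) and 1.19 ± 0.14 (FDR 6.5e-11), where it lay at 4.06, 4.36 and 5.36 CPM at 24 hours against 9.63, 10.2 and 12.8 in DMSO2. Fibroblast markers were lower here as well: 4 of 6 were called lower at 6 hours and 6 of 6 at 24 hours, and their summed level was 5293 to 6985 CPM in Ace and 10133 to 13412 in DMSO2 at 24 hours. Of the endothelial markers 2 of 4 were lower in Ace at 6 hours and 3 of 4 at 24 hours. Also lower at 24 hours of Ace were 2 of 5 cardiomyocyte, 2 of 4 macrophage and 2 of 3 smooth muscle markers. The dividing-cell markers were higher there in 3 of 3 cases. At 6 hours of Ace 1 of 4 macrophage and 2 of 3 dividing-cell markers were lower. In Dox at 24 hours 6 of 6 fibroblast markers were lower too, at a sum of 1427 to 3072 CPM, while Zfp423 was higher. The part of these markers in the values of Zfp423 and Zfp467 was not tested. Zfp618, which binds Uhrf2, fell by 0.87 ± 0.11 in Ace at 24 hours (FDR 1.5e-09), and Zfp688 rose by 1.03 ± 0.09 (FDR 1.1e-14). The difference between the Ace effects at 24 and 6 hours was called higher for 5 members and lower for 28, 2.14% and 12%. Of all genes 5.58% were higher and 6.06% lower (11.6% in either direction). With library size alone the counts of members were 8 and 10.

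Members called in 1 direction in all 6 drug comparisons included Zfp688, Zfp367 and Zfp707 above and Zfp521, Zfp57 and Zfp608 below. Ace and Dox share their DMSO2 libraries. Zfp688 lay at 5.58, 6.39 and 6.85 CPM in DMSO2 at 24 hours, at 8.75, 13.2 and 14.6 in Ace and at 19.9, 21.2 and 23.9 in Dox. Its rise ran from 0.47 ± 0.09 (FDR 2.6e-05) in Ace at 6 hours to 1.78 ± 0.09 (FDR 3.6e-27) in Dox at 24 hours, and that of Zfp707 from 0.29 ± 0.07 (FDR 0.00046) in Ace to 1.05 ± 0.07 (FDR 3.1e-22) in Dox, both at 24 hours. Zfp57, a KRAB protein that keeps the methylation of imprinted genes, lay at 12.2, 13.3 and 14.9 CPM in DMSO2 and at 5.05, 8.46 and 10.3 in Dox at 6 hours, and its fall ran from 0.54 ± 0.09 (FDR 1.9e-06) in Ace to 1.05 ± 0.10 (FDR 1.4e-14) in 5FU, both at 6 hours. Zfp521, a close relative of Zfp423, lay at 15.5, 16.1 and 18.4 CPM in DMSO2, at 9.45, 10.3 and 10.6 in Ace and at 4.67, 5.24 and 6.35 in Dox at 6 hours, with no overlap between the 3. Its fall ran from 0.54 ± 0.08 (FDR 4.4e-08) in Ace at 24 hours to 1.65 ± 0.09 (FDR 1e-25) in Dox at 6 hours. Zfp521 was also lower in DMSO1 than in DMSO2 at 6 hours, by 0.39 ± 0.08 (FDR 0.00026).

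In the controls 93 members were higher and 28 lower at 24 than at 6 hours, 39.7% and 12% of members against 32.7% and 31.9% of all genes (64.6% in either direction), with a median of 0.12. Over this interval 6 of 6 fibroblast, 4 of 4 macrophage and 3 of 4 endothelial markers were higher, and 3 of 3 dividing-cell markers lower. Of 3 smooth muscle markers 1 was higher and 2 lower, and of 5 cardiomyocyte markers 1 was higher and 1 lower. The part of these markers was not tested. The 2 solvents differed at 6 hours. Of all genes 9.87% were higher and 6.6% lower in DMSO1 (16.5% in either direction). Of the members 16 were higher and 7 lower, 6.84% and 2.99%. These counts moved with single libraries and with the scaling: 10 were higher without DMSO1 replicate 6 and 10 without DMSO2 replicate 1, and library size alone gave 6 higher and 15 lower. At 24 hours edgeR called 0 members in either direction (0.137% and 0.295% of all genes, 0.433% in either direction), with 18 at an unadjusted p under 0.05, and DESeq2 also called 0. Zfp423 was the member with the largest fall in DMSO1 against DMSO2 at 6 hours among those with a mean count of at least 100, at -0.64 ± 0.14 (FDR 0.00028). At the same time 5 of 6 fibroblast markers and 4 of 4 endothelial markers in the table were lower in DMSO1, 2 of 3 smooth muscle and 3 of 3 dividing-cell markers were higher, and their part was not tested.

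Members that act on RNA and ribosomes gave a mixed picture. Zfp36 (tristetraprolin), which binds AU-rich elements and speeds mRNA decay, lay at 15.4, 21.2 and 26 CPM in DMSO1 at 6 hours and at 31.7, 38.5 and 54.1 in 5FU, without overlap. It rose by 0.87 ± 0.12 (FDR 9.3e-09) and 0.65 ± 0.12 (FDR 4e-06) in 5FU and by 1.09 ± 0.11 (FDR 6.3e-14) in Dox at 24 hours, while its value at 6 hours of Dox was -0.28 ± 0.12 (FDR 0.03). Zfp598, the ubiquitin ligase that marks collided ribosomes, rose by 0.66 ± 0.04 (FDR 1.3e-24) in Dox at 24 hours. At 6 hours its 0.13 ± 0.04 (FDR 0.0019) turned to -0.02 (FDR 0.65) with library size alone. Zfp593, a factor of 60S subunit assembly, was higher by 0.29 at 24 hours of Dox (FDR 0.00023) and did not pass the test in the other 5 drug comparisons. Zfp473, which takes part in the processing of histone mRNA with the U7 particle, had a mean count of 27.5, rose by 0.95 in Ace at 24 hours (FDR 1.5e-05) and fell by 1.24 in Dox at 6 hours (FDR 1.5e-07). Among other DNA-binding members, Zfp148 rose by 0.43 in 5FU at 6 hours (FDR 5.5e-10), Zfp692 fell by 0.57 in Dox at 24 hours (FDR 2.4e-09), and Zfp667, first described in ischaemic preconditioning of the heart, rose by 0.52 in 5FU (FDR 0.00034) and by 0.66 in Ace (FDR 4e-06) at 6 hours.

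There were 4 members with 3 counts or fewer in every library of at least 1 group. Zfp622, a factor of 60S subunit maturation, was at 0 in every library of Ace at 24 hours and of DMSO1 at 6 hours, and reached 129 counts in 1 library of Dox at 24 hours. The median library of each of the 10 groups was at 0, and no drug comparison was called. Zfp541, known from meiosis in germ cells and the member with the lowest mean count, had 1 to 5 counts in DMSO2 and 12 to 26 in Dox at 24 hours. Zfp951 had 0 to 2 counts in DMSO2 and 1 to 15 in Dox at 6 hours, and 0 to 6 and 18 to 44 at 24 hours. Zfp551 had 0 to 9 counts in DMSO2 and 16 to 28 in Dox at 24 hours. The last 3 were called higher in Dox at 24 hours (FDR 2.4e-08, 5.9e-08 and 3.3e-08) and did not overlap with their controls there. Zfp541 and Zfp951 were also called higher at 6 hours of Dox (FDR 0.00032 and 0.00019), where their groups overlapped. Counts this low leave the size of these changes uncertain. Genes below 10 counts in every library were not in the table. At 24 hours Zfp541, Zfp951 and Zfp551 reached 10 counts in Dox and not in DMSO2. A rise in Dox may thus have let them into the table, so these calls are not independent of that filter.

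Members were split by their Zfp neighbours in the RefSeq annotation of GRCr8, which was used for gene order only. Zinc finger genes with other symbols were not counted, so members with 0 Zfp neighbours may still lie in clusters. With the 5 nearest protein-coding genes on each side counted, 82 members had at least 2 further Zfp genes as neighbours, 41 had 1 and 111 had 0. Dox at 6 hours called 53 of the 82 lower (64.6%), 27 of the 41 (65.9%) and 55 of the 111 (49.5%). Of all genes 32.7% were lower there. The median log2 fold changes of the 3 sets were -0.52, -0.41 and -0.26. At 24 hours of Dox the medians were -0.66, -0.64 and -0.09. 5FU at 6 hours called 45 of the 82 higher (54.9%), 14 of the 41 (34.1%) and 42 of the 111 (37.8%). Of all genes 23.4% were higher in 5FU at that time. The 3 sets differed in mean count, with medians of 183.1, 275.1 and 345.4. Of 35 pairs of members that are adjacent in this order, 15 were both lower at 6 hours of Dox and 1 both higher. Another 7 were called in opposite directions, and in 12 at least 1 was not called. With 57.7% of all members lower in this comparison, pairs that are both lower can arise without any link between neighbours. The number to be expected was not worked out. No test was made of the differences between the 3 sets or of the pairs.

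RefSeq promoter windows of GRCr8, 250 bases before to 50 after the annotated start, were at hand for 196 members. The median window held 57.3% G and C and 18 CpG, against 60.7% and 20 over the 11403 windows of genes in the count table. The core of the sites that Zfp143 and Thap11 are known to bind, searched on either strand and printed in capitals below, was in 27 of the 196 windows (13.8%), against 3.79% of windows of genes in the count table and 1.85% of all 27457. It was in 19 of the 115 windows of members lower in Dox at 6 hours (16.5%), in 0 of the 34 of members higher and in 8 of the 47 not called (17%). It was in 12 of the 90 windows of members higher in 5FU at 6 hours (13.3%). The median Dox value at 6 hours was -0.71 for the 27 and -0.41 for the other 169. At 24 hours of Dox 21 of the 27 were lower and 3 higher. The match was in 15 of 75 windows of members with at least 2 Zfp neighbours (20%) and in 12 of 121 others (9.92%). Members with such neighbours also had the lowest median in Dox. Match and neighbours were not separated, and the part of either in the Dox values was not tested. The other motifs searched, each on both strands, were GGGCGG (Sp factors) in 46.4% of member windows and 60.4% of those of genes in the table, CCGGAAG (ETS factors) in 20.4% and 16%, the palindromic Nrf1 motif in 3.57% and 1.72%, CACGTG (E-box) in 8.16% and 9%, and TATAAA in 9.18% and 7.28%. No motif of the 6 contains another. A match is a run of letters and not a measured binding site.

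The windows below show the match in capitals for 4 members that fell in Dox, and that of Zfp367, which rose in all 6 drug comparisons and holds no match. They are written 5′ to 3′ on the strand of the gene, and the annotated start follows the first 250 bases. Where the motif lies on the other strand, the capitals show its reverse complement. Zfp879 is at chr10:35659643-35659942, minus strand, Zfp691 at chr5:138070220-138070519, minus strand, Zfp358 at chr12:6350016-6350315, plus strand, Zfp112 at chr1:88804583-88804882, plus strand, and Zfp367 at chr17:970646-970945, plus strand. The members were chosen after their values were seen, for a large fall or, for Zfp112, for its 3 matches. Zfp955a, Zfp13, Zfp579, Zfp260 and Zfp106, which also fell in Dox, hold no match in their windows. Zfp748, Zfp566 and Zfp458 hold a match and were not called in Dox at either time. Zfp551, at low counts, holds a match and was higher by 2.19 at 24 hours of Dox.
Zfp879: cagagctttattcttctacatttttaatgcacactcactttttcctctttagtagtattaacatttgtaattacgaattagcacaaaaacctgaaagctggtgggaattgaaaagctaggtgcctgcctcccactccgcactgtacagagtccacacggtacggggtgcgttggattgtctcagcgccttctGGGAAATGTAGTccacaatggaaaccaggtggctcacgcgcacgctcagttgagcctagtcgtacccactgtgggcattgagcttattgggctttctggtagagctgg
Zfp691: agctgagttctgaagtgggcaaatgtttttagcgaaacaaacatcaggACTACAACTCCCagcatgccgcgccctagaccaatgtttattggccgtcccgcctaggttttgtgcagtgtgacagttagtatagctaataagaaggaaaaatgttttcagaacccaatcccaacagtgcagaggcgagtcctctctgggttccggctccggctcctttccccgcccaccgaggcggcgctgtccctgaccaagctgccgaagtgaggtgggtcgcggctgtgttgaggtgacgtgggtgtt
Zfp358: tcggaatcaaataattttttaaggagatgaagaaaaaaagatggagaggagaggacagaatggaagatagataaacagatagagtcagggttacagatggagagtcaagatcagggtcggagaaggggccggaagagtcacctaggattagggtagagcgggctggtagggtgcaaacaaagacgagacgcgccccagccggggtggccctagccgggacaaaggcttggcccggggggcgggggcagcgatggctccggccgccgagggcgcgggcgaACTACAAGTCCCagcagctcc
Zfp112: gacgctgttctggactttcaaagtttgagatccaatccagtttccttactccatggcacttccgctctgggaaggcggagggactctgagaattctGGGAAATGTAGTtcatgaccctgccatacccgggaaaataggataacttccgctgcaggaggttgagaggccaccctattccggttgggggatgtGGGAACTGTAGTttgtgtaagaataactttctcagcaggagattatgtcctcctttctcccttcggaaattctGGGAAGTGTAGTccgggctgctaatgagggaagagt
Zfp367: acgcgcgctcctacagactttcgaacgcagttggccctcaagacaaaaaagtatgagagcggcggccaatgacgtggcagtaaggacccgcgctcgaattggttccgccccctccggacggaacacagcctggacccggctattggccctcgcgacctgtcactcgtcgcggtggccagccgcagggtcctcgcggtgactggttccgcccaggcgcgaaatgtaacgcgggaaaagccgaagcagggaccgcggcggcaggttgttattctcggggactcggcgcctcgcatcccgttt

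The match lies 58 bases before the annotated start in Zfp879, 202 before it in Zfp691 and from base 30 after it in Zfp358, counted to its first letter. In Zfp112 the 3 matches begin 154 and 59 bases before the start and at base 15 after it. Zfp879 lay at 3.19, 3.55 and 4.39 CPM in DMSO2 at 6 hours and at 0.305, 0.674 and 0.96 in Dox. Zfp691 lay at 22, 25.2 and 28.8 and at 4.87, 6.16 and 7.08, and Zfp358 at 36.6, 40.5 and 43.3 and at 15, 19.9 and 23.1. No Dox library of the 3 overlapped a control library. They fell by 2.49 ± 0.18 (FDR 5.4e-19), 2.02 ± 0.10 (FDR 6.5e-28) and 1.05 ± 0.07 (FDR 3.9e-21). Zfp112 fell by 0.99 (FDR 6.5e-10).

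Other zinc finger genes, with symbols Zbtb, Zscan, Zkscan, Znf or Klf and a number, gave 84 genes for comparison. At 6 hours of 5FU 34 were higher and 12 lower (40.5% and 14.3%, against 23.4% and 24.5% of all genes), with a median log2 fold change of 0.22. In Ace 21 were higher and 10 lower (25% and 11.9%, against 16.5% and 15.2%), with a median of 0.10. In Dox 19 were higher and 45 lower (22.6% and 53.6%, against 31.5% and 32.7%), with a median of -0.36. At 24 hours of 5FU 36 were higher and 14 lower (42.9% and 16.7%, against 28% and 27.8% of all genes). The median was 0.14, where the Zfp genes had 0.02. In Ace at that time 12 were higher and 9 lower (14.3% and 10.7%, against 18.2% and 19.1%), with a median of 0.002. At 24 hours of Dox 35 were higher and 28 lower (41.7% and 33.3%, against 40.4% and 41% of all genes). Their median was 0.07, where the Zfp genes had -0.41, but the families differed. Lower were 6 of 8 Zscan genes (median -1.22), 5 of 7 Zkscan (-0.96) and 7 of 13 Znf (-0.48), and higher 1, 1 and 3. Of 41 Zbtb genes 21 were higher and 7 lower (median 0.29), and of 15 Klf genes 9 and 3 (0.72). Of the 20 KRAB cofactors listed, which include Trim28 and Setdb1, Dox raised 5 and lowered 10 at 6 hours (25% and 50%, against 31.5% and 32.7% of all genes), and raised 4 and lowered 12 at 24 hours (20% and 60%, against 40.4% and 41%). Trim28 itself fell by 0.23 at 24 hours (FDR 6.1e-06) and was at 0.08 (FDR 0.12) at 6 hours, and Cbx3, a heterochromatin protein, fell by 1.74 (FDR 1.5e-40) at 24 hours. Of the 16 mRNA decay factors found, Dox raised 3 and lowered 10 at 6 hours (18.8% and 62.5%, against 31.5% and 32.7% of all genes), and raised 6 and lowered 4 at 24 hours (37.5% and 25%, against 40.4% and 41%). In 5FU at 6 hours 3 were higher and 3 lower (18.8% each, against 23.4% and 24.5%), and the largest rise was that of Dcp1a, a subunit of the decapping complex, at 1.02 (FDR 2.4e-19).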

How the data were processed

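Estimated counts per gene were used as deposited. The authors made these expected counts with kallisto 0.46.0 from polyA paired-end reads and tximport, on a rat Ensembl transcriptome, summed to Entrez genes, and removed genes with low counts; the stored values are whole numbers and not normalized. All 65 columns were used; their headers give the group but no replicate number, and libraries were numbered within a group only as names. Same-group libraries differed by more than sampling noise in all 180 pairs (lowest chi-square per gene 2.91). Symbols came from RefSeq (GRCr8) for 14009 of 14554 identifiers; 45 genes with a Zfp symbol only as an older synonym were left out. Library totals ran from 14332827 to 25738297.

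Counts were fitted in R 4.3.3 with edgeR 4.0.16 (glmQLFit, glmQLFTest, TMM factors 0.859 to 1.07) in 1 model of 10 groups and 12 contrasts, with a Benjamini-Hochberg FDR below 0.01 over all genes; SE is the absolute log2 fold change over the root of F. Genes needed 10 counts in some library, and this removed 0 genes. DESeq2 1.42.0 was an alternative, with its size factors, library size alone, filterByExpr, no filter, the compared groups only, an FDR below 0.1 and leaving out each library. The fit was tested on simulated data.

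The members and lists were chosen with earlier results of these data known. Genes named are, among called members with a mean count of at least 100, the 2 with the largest rise and fall in each drug comparison and 1 each in the solvent comparison at 6 hours, the time comparison and the differences between times. Added to these are the 3 members above and 3 below in all 6 drug comparisons, a list of members of known function, members at 3 counts or fewer throughout a group, and the highest and lowest mean counts. Zfp330, Zfp879, Zfp691, Zfp358 and Zfp112 were chosen after their values were seen. Marker lists and related genes were described by counts. Protein features were not analysed here.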

Additional observations from a re-analysis of the deposited data

Results flagged for a closer look

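In groups of 6 or 7 libraries, 26 of 380 tests of the lowest or highest library stood apart from the others by Dixon's criterion, which chance gives in about 5% of groups. Levels are TMM-scaled CPM, with the range of the other libraries. In Dox at 24 hours the summed level of the 234 Zfp genes was 5250 in library 7 (4910 to 4990), Zfp503 was 27.3 in library 7 (38.7 to 44.4), Zfp367 was 42.5 in library 7 (58.8 to 68.3) and Zfp148 was 61.1 in library 7 (50.5 to 54.2). In Ace at 6 hours Zfp398 was 8.35 in library 4 (7.37 to 7.69), Zfp276 was 20.5 in library 5 (17.8 to 18.4), Zfp955a was 48.7 in library 6 (38.3 to 41.9), Zfp622 was 2.79 in library 5 (0 to 0.269) and Zfp106 was 172 in library 3 (191 to 202). In 5FU at 6 hours Zfp503 was 8.58 in library 2 (11 to 12.2) and Zfp622 was 2.57 in library 6 (0 to 0.331). In DMSO2 at 24 hours Zfp423 was 12.8 in library 2 (9.63 to 10.9), Zfp598 was 74.3 in library 5 (80.2 to 84.2), Zfp622 was 1.65 in library 2 (others at 0) and Zfp106 was 294 in library 5 (321 to 340). In Ace at 24 hours Zfp688 was 8.75 in library 7 (12.3 to 14.6), Zfp521 was 14.3 in library 1 (12.5 to 13.2), Zfp57 was 9.45 in library 7 (6.65 to 7.8), Zfp260 was 58.4 in library 4 (66.6 to 72.7) and Zfp598 was 89.4 in library 4 (81.7 to 84.4). In DMSO1 at 24 hours Zfp688 was 12.2 in library 1 (6.26 to 8.01) and Zfp385a was 57.3 in library 2 (42.5 to 46.1). In Dox at 6 hours Zfp955a was 9.99 in library 4 (5.96 to 6.84) and Zfp622 was 0.94 in library 7 (others at 0). In 5FU at 24 hours Zfp622 was 0.699 in library 3 (others at 0). In DMSO1 at 6 hours Zfp951 was 0.413 in library 6 (0 to 0.0988).

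edgeR's quasi-likelihood test of the difference between times was used, at an FDR below 0.01. The 5FU effect differed between 24 and 6 hours (24 minus 6) for 93 Zfp genes by the test of the difference itself. Of the named genes it was higher at 24 hours for Zfp207 (1.30), Zfp457 (0.76), Zfp365 (0.70), Zfp467 (0.70), Zfp955a (0.58) and Zfp608 (0.56), and lower for Zfp503 (-1.28), Zfp280b (-1.13), Zfp398 (-0.92), Zfp523 (-0.82), Zfp964 (-0.80), Zfp367 (-0.69), Zfp667 (-0.62), Zfp521 (-0.42) and Zfp707 (-0.36), on the log2 scale. The Ace effect differed between 24 and 6 hours (24 minus 6) for 33 Zfp genes by the test of the difference itself. Of the named genes it was higher at 24 hours for Zfp473 (1.01), Zfp367 (0.69), Zfp467 (0.61) and Zfp688 (0.56), and lower for Zfp503 (-0.83), Zfp618 (-0.55) and Zfp707 (-0.42), on the log2 scale. The Dox effect differed between 24 and 6 hours (24 minus 6) for 140 Zfp genes by the test of the difference itself. Of the named genes it was higher at 24 hours for Zfp551 (2.58), Zfp365 (2.17), Zfp423 (2.07), Zfp143 (1.71), Zfp36 (1.37), Zfp281 (1.14), Zfp280b (1.09), Zfp964 (1.04), Zfp473 (0.86), Zfp367 (0.81), Zfp688 (0.78), Zfp521 (0.57), Zfp457 (0.55), Zfp598 (0.53), Zfp608 (0.50), Zfp385a (0.48), Zfp207 (0.39) and Zfp707 (0.28), and lower for Zfp579 (-1.86), Zfp955a (-1.42), Zfp13 (-1.41), Zfp106 (-0.91), Zfp692 (-0.51), Zfp276 (-0.35) and Zfp260 (-0.26), on the log2 scale. The DMSO libraries of Ace and Dox are the same. The fitted value of Zfp551 rests on counts of 28 or fewer.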

How the results depend on the processing

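The counts of Zfp genes in the 6 drug comparisons stayed within 1.5 times under every change of scaling, filter, tool and fitted groups and with any library left out. At an FDR below 0.1 the counts were 79 higher in 5FU at 24 hours, 115 higher in Ace at 6 hours, 46 higher and 60 lower in Ace at 24 hours, and, for DMSO1 against DMSO2, 42 higher and 20 lower early and 1 and 2 late; for the difference between times they were 35 higher in 5FU and 8 higher and 65 lower in Ace. With library size alone DMSO1 against DMSO2 at 6 hours had 6 higher and 15 lower, the difference between times 8 higher and 10 lower in Ace and 44 lower in Dox. With the compared groups alone DMSO1 against DMSO2 at 6 hours had 8 higher, and the Ace difference 49 lower. Leaving out 1 library gave 10 to 20 higher in DMSO1 against DMSO2 at 6 hours. The cause of these changes was not tested.

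Of 218 values of named genes past the threshold, the alternatives gave 5071 values, of which 177 lost the call and 1 reversed: Zfp598 in Dox at 6 hours, -0.0238 with library size alone. Among 226 values not past it, 33 changed sign with library size alone and 177 of 4007 with a library left out. Counts under 10 in some libraries limit Zfp622, Zfp541, Zfp551 and Zfp951. No paired analysis was possible because the columns carry no replicate number.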
